A study of Caenorhabditis elegans with 2 samples.

Results

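The genes described here encode the proteins of the cytosolic ribosome of Caenorhabditis elegans. They were chosen by name: every protein-coding gene whose name starts with rpl- or rps-, and the stalk genes rla-0, rla-1 and rla-2. The rule gave 81 of the 19973 nuclear protein-coding genes, 50 for the large subunit and 31 for the small subunit. The data are peak lists from chromatin immunoprecipitation sequencing (ChIP-seq) of the protein C06A6.2. There was 1 group of 2 biological replicates, whole young adults of 67 hours, of strain OP810. These worms carried the transgene wgIs810, which holds C06A6.2 fused to TY1, EGFP and 3xFLAG together with unc-119(+), in the unc-119 (tm4063) background, and an antibody to GFP was used to pull down chromatin. All worms carried the transgene and the unc-119 allele, and no untagged strain or control library was analysed here. The profile is that of a tagged protein made from a transgene and mixes all tissues of the animal, so a site used in few cells and a site used weakly in many cells cannot be told apart.

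The cytosolic ribosome has a small subunit, which reads the messenger RNA, and a large subunit, which joins the amino acids. Each is built of ribosomal RNA and a set of proteins that a cell needs in matched amounts, and the genes for these proteins are among the most strongly transcribed of any growing cell. In C. elegans most of these genes exist as a single copy, and many host small nucleolar RNA (snoRNA) genes in their introns. The messages of many worm genes have their first stretch replaced by a spliced leader, so an annotated 5′ end is often a splice site and transcription may begin further upstream. The assay asks where the tagged protein sits on the genome, and here the start regions of these genes are examined.

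The sequences at the peaks come first, since the words and distances given further on refer to them. Each line is the genome sequence (ce11, the same assembly as WBcel235) of the 121 bp centred on the summit, the position of highest signal within a peak, written 5′ to 3′ on the strand of the gene. The first 7 are the genes with the highest peak signal among those whose sequence could be shown. The last 2, rpl-11.2 and rps-23, were added after their values were seen, because 2 of the words described below stand end to end in them. Capitals mark 4 words of 7 bases on either strand. The first word is TACCGTA, which reads TACGGTA on the opposite strand. The second word is ACACTCG, which reads CGAGTGT on the opposite strand. The third word is TAGGCCA, and the last is GGCCTAA.
rpl-3 (chrIII:3867516-3867636, plus strand): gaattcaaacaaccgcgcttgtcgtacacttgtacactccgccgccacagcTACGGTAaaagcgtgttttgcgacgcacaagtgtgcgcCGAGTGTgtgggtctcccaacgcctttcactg
rpl-35 (chrIII:7854628-7854748, plus strand): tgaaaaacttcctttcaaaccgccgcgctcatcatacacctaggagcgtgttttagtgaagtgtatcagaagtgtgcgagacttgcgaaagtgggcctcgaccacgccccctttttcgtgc
rpl-20 (chrIV:4750004-4750124, minus strand): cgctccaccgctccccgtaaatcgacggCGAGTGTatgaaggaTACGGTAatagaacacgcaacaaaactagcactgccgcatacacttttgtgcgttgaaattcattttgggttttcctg
rpl-15 (chrIV:654868-654988, minus strand): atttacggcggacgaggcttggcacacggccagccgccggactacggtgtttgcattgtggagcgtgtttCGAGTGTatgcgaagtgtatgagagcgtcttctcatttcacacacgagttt
rps-28 (chrIV:1659181-1659301, plus strand): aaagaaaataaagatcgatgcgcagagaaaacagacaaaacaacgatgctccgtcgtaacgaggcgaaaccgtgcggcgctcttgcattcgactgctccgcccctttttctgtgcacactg
rps-1 (chrIII:4475596-4475716, plus strand): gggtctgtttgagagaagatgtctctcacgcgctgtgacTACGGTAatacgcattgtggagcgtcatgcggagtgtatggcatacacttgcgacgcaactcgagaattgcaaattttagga
rpl-7A (chrIV:4390608-4390728, minus strand): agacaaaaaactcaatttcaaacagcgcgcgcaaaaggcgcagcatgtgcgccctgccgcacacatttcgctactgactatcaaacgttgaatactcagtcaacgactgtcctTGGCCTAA
rpl-11.2 (chrX:2242947-2243067, minus strand): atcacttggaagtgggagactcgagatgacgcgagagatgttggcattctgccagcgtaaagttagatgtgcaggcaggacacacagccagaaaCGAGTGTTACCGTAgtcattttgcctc
rps-23 (chrIV:12391247-12391367, minus strand): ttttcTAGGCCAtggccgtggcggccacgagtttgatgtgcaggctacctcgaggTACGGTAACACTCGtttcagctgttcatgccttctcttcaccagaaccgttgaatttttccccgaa
The rpl-3, rpl-20, rps-1, rpl-11.2 and rps-23 windows hold TACCGTA, and the rpl-3, rpl-20, rpl-15, rpl-11.2 and rps-23 windows hold ACACTCG. The rpl-35 and rps-28 windows hold none of the 4 words, although their peak signals are among the highest. The rps-1 summit lies in 2 annotated non-coding RNA genes, and the other windows overlap no annotated exon.

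The main peak list is the deposited list labelled conservative, made from both replicates and thresholded on the irreproducible discovery rate, which grades how well a peak's rank holds between replicates. A gene counts as having a peak here if a summit lay within 500 bp of any annotated start of its protein-coding transcripts. By this rule 22 of the 81 ribosomal protein genes had a peak, 27.2% with a 95% Wilson interval of 18.7 to 37.7. The share over all 19973 protein-coding genes was 3.27%, below that interval. At all 22 the strongest summit was upstream of the start, as it was at 87.2% of the 631 other genes with a peak. Genes with such an upstream summit were thus 27.2% of the 81 members, against 2.86% of all protein-coding genes. Intervals on shares cover counting error only. Members with a peak were a minority, and the 59 members without one are described further on.

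Large and small subunit genes did not differ beyond their intervals. A peak was found at 12 of 50 large subunit genes, 24% (14.3 to 37.4), and at 10 of 31 small subunit genes, 32.3% (18.6 to 49.9). The median signal of these peaks was 232 for the large subunit and 211 for the small subunit, on the scale of the deposited list, whose units the sources used here do not give. In the order of the 1346 conservative peaks the median rank was 109.5 for the large subunit and 125.5 for the small subunit. The distance to the start was also close, with medians of 288 bp and 279.5 bp upstream.

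The peaks at ribosomal protein genes stood high in the list. Their median signal was 212, with a range of 66.7 to 726, against a median of 97.3 for the 631 other genes with a peak and 87.4 for all 1346 peaks. Of the 22, 10 were among the first 100 peaks by signal (45.5%), whereas the first 100 are 7.43% of the list. Signal was above the list's median at 19 members and below it at 3, rpl-7, rps-4 and rpl-23.

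The strongest large subunit peak was that of rpl-3 (WBGene00004414), whose protein reaches towards the site where amino acids are joined. Its peak, chromosome III 3867427 to 3867695, scored 351 in replicate 1 and 381 in replicate 2, and 726 in the conservative list (rank 6), in units of signal. Next was rpl-35 (WBGene00004449), for a protein beside the exit of the tunnel through which the new chain leaves. The rpl-35 peak, chromosome III 7854561 to 7854823, had signals of 284 in replicate 1 and 424 in replicate 2, and 711 in the conservative list (rank 8). The peak at rpl-20 (WBGene00004432), chromosome IV 4749963 to 4750194, had 260.0 in replicate 1, 310 in replicate 2 and 568 in the conservative list (rank 13). These 3 were higher than every other member in both replicates. At rpl-15, for a protein of the core of the large subunit, the signal was 203 in replicate 1, 217 in replicate 2 and 418 in the conservative list. At rpl-7A it was 110.1, 168 and 278 in the same order.

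The other large subunit peaks were lower and spread over a wide range. At rpl-12, for a protein at the base of the stalk that binds translation factors, the signal was 136 in both replicates and 264 in the conservative list. At rpl-11.2, for a protein that binds the smallest ribosomal RNA of the large subunit, it was 70.9 in replicate 1, 91.5 in replicate 2 and 162 in the conservative list. The gene rpl-24.2, whose relatives in yeast and human make ribosome assembly factors, had 93.8 in replicate 1, 104 in replicate 2 and 200 in the conservative list. It is a member by its name alone, and its signal was close to the members' median. The very short protein of rpl-41.2 comes from a gene with 82.3 in replicate 1, 42.7 in replicate 2 and 124.9 in the conservative list. The conservative signals of rpl-14, rpl-7 and rpl-23 were 118, 86.1 and 66.7.

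Among small subunit genes rps-28, for a protein near the channel by which messenger RNA leaves, had the strongest peak. Its signal was 161 in replicate 1, 234 in replicate 2 and 402 in the conservative list (rank 33), below 4 of the large subunit genes. At rps-1 it was 158 in replicate 1, 171 in replicate 2 and 322 in the conservative list. At rps-19, whose human relative is mutated in the inherited anaemia Diamond-Blackfan, it was 114.9, 156 and 269 in the same order. The gene rps-24, another whose human relative is mutated in that anaemia, had 110.4 in replicate 1, 157 in replicate 2 and 260.1 in the conservative list. These 4 were the small subunit genes among the first 100 peaks.

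Lower in the small subunit, rps-12, rps-20 and rps-15 had conservative signals of 224, 199 and 191. The gene rps-26, for another protein near the messenger RNA exit, had 120.5 there, with 67.5 in replicate 1 and 55.8 in replicate 2. At rps-23, for a protein of the centre that checks codon against anticodon, the signal was 43.2 in replicate 1, 52.2 in replicate 2 and 89.6 in the conservative list. The weakest of the small subunit was rps-4, with 26.3 in replicate 1, 51.9 in replicate 2 and 75.4 in the conservative list.

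**Figure D1:**
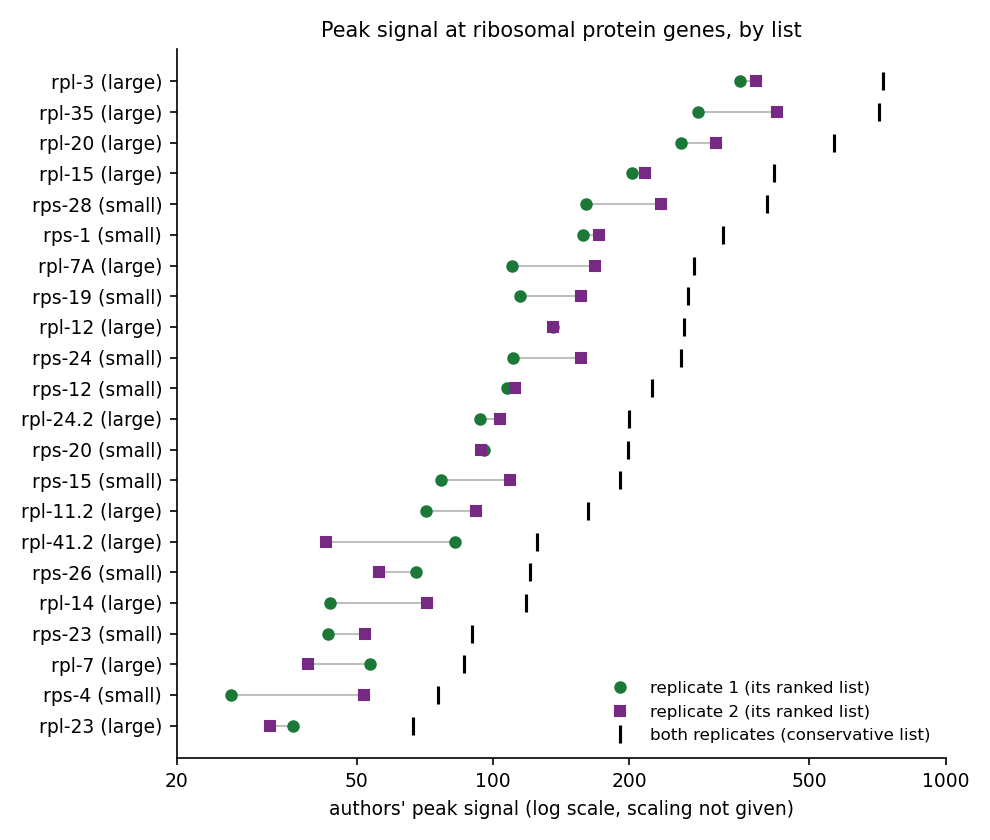
Authors' peak signal (log axis, scaling not given) at the 22 ribosomal protein genes with a conservative peak, in the ranked lists of replicate 1 (circles) and replicate 2 (squares) and in the conservative list of both (bars). The genes run from rpl-3 at 726 to rpl-23 at 66.7 in the conservative list, and the replicates keep a similar order, with the widest gaps at rpl-41.2 and rps-4.

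The replicates gave the same peaks at these genes. For all 22 the strongest ranked summit within 500 bp belonged, in each replicate, to a peak that overlapped the conservative peak. The replicates' summits lay 1 to 55 bp apart with a median of 16 bp, and 19 of the 22 pairs lay within 30 bp. Signal was higher in replicate 2 at 16 members and in replicate 1 at 6, and the ratio of replicate 2 to replicate 1 had a median of 1.15. It ranged from 0.518 at rpl-41.2 to 1.97 at rps-4. Across the 22 genes the replicates' signals had a Spearman correlation of 0.940 and, as log2 values, a Pearson correlation of 0.916. That is a description: each conservative peak had to be repeatable in both replicates, so the correlation is over genes chosen for agreement.

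The replicates' own thresholded lists, each made from 1 replicate, also held most of these genes. There were 21 members in that of replicate 1, where 2.02% of all genes were counted, and 20 in that of replicate 2, where 2.32% were. Of the 22 members with a conservative peak, 18 were in both. The gene rpl-14 was missing from the list of replicate 1 and rpl-7 from that of replicate 2, and rps-4 and rpl-23, the weakest by conservative signal, were in neither.

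By median, the summits at ribosomal protein genes lay further upstream than those at the other genes with a peak. Counted from the start, with negative values upstream, the median was -285.5 bp (quartiles -345.5 and -256 bp) for the members and -179 bp (quartiles -291.5 and -77.5 bp) for the 631 other genes with a peak. A summit upstream was found at 22 of 22 members and at 550 of the 631 other genes (87.2%). Between 250 and 400 bp upstream lay 14 of the 22 members (63.6%), against 150 of the 631 other genes (23.8%). In the 50 bp from 300 to 250 bp upstream there were 9 members, rpl-3, rpl-20, rps-1, rps-19, rpl-41.2, rps-23, rps-4, rpl-23 and rpl-7. No test was run on these shares. Of the 3 strongest peaks, rpl-3 and rpl-20 were 278 and 286 bp from the start and rpl-35 was 446 bp from it.

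The members at either end of that range were few. The summits at rpl-12 and rpl-7A lay 47 and 78 bp upstream, and those at rpl-24.2, rps-12 and rps-20 lay 158, 163 and 230 bp upstream. At the far end, rps-26, rpl-35 and rps-28 had their summits 439, 446 and 450 bp upstream. The conservative summit of rps-26, at 14759491, is at the edge of its peak, chromosome I 14759489 to 14759590. The summits of rps-26 in the ranked lists were 399 bp upstream in replicate 1 and 382 bp upstream in replicate 2. Distances given here for the rps-26 peak use the edge position. Because 17 of the 22 (77.3%) lay more than 250 bp from the start, against 229 of 631 other genes (36.3%), a window of 250 bp keeps 5 of the 22. That is 6.17% of the 81 members (2.67 to 13.6), against 2.08% of all genes. Distances are measured to annotated 5′ ends, where transcription starts was not measured here. From that end to the start of the coding sequence the median was 8 bp for ribosomal protein genes and 10 bp for all protein-coding genes, and it was at most 20 bp in 80.2% of ribosomal protein genes and 62.3% of all.

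**Figure D2:**
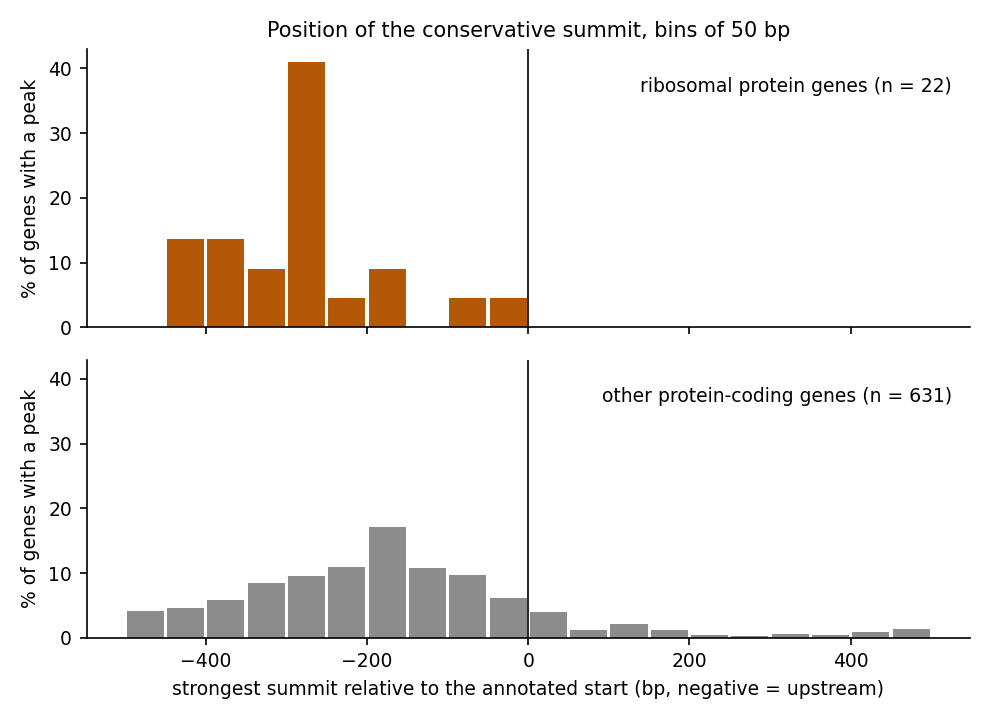
Distance of the strongest conservative summit from the annotated start in bins of 50 bp (negative values are upstream), as percent of the 22 ribosomal protein genes with a peak (top) and of the 631 other genes with a peak (bottom). The members' tallest bin, with 40.9%, is the 1 from 300 to 250 bp upstream, and the other genes' tallest bin, with 17.1%, is the 1 from 200 to 150 bp upstream.

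Several of these peaks lay near more than 1 gene. The summit was also within 500 bp of a start of another protein-coding gene at 10 of the 22 members (45.5%), against 121 of 555 other promoter peaks (21.8%). At all 10 the other gene lay on the opposite strand. It was the nearer of the pair in 5: Y17G9B.5 (176 bp) beside rpl-20, hsr-9 (171 bp) beside rps-19, ska-3 (130 bp) beside rps-12, ekl-4 (167 bp) beside rps-20 and tmem-107 (18 bp) beside rps-26. The ribosomal protein gene was the nearer in the other 5, rpl-15, rpl-7A, rpl-12, rps-15 and rps-23. The other gene of the rpl-12 peak is lin-54, for a DNA-binding protein of the complex that represses cell-cycle genes, 346 bp away. Which gene of a pair a peak serves cannot be read from the lists.

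Non-coding genes were near some of the same peaks. The summits at 6 members were within 500 bp of the 5′ end of a non-coding RNA gene, in 3 cases a snoRNA gene (beside rpl-7A, rps-12 and rps-26). The matching share of other promoter peaks is not given here, so these are counts only. The summits at rps-1 and rpl-7 were inside non-coding RNA genes, and that at rpl-24.2 was inside the protein-coding gene C03D6.1. At 9 members no other gene started within 500 bp, among them rpl-3 and rpl-35 with the strongest signals. A snoRNA gene within the ribosomal protein gene itself was annotated in 13 of the 81 members, and 6 of these 13 had a peak: rpl-15, rpl-7A, rps-12, rps-23, rpl-7 and rps-4. Over all 81 members 27.2% had a peak, and over all protein-coding genes 3.27%. Whether holding a snoRNA gene goes with having a peak was not tested.

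The 59 members without a conservative peak were not without any signal. The ranked lists, which hold weak peaks as well, had 31655 entries in replicate 1 and 28508 in replicate 2, with median signals of 15.3 and 16.9. A ranked summit lay within 500 bp of 63 of the 81 members in replicate 1, where 35.3% of all genes had one, and of 62 in replicate 2, where 33.1% of all genes had one. Both replicates had one at 56 members, 69.1% (58.4 to 78.1), against 19.5% of all genes. Within 250 bp both had one at 14 members (17.3%), against 10.7% of all genes. No interval was computed for that 17.3%, so it is not read as an excess. The replicates' strongest ranked peaks at a gene need not be the same peak. They overlapped at 42 of the 56 members (75%), against 70.5% of all genes with a ranked summit in both. All 22 members with a conservative peak are among the 42, which raises the members' share. By subunit, the members with a ranked summit in both replicates were 33 of 50 large subunit genes (66%) and 23 of 31 small subunit genes (74.2%). No intervals were computed for these shares, so they are not read as a difference between the subunits. Neither replicate had a ranked summit at 12 members, 6 of each subunit. The matching share of all genes is not given here, so the 12 is a count only.

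Of the 59 members without a conservative peak, 34 had a ranked summit in both replicates, 7 in replicate 1 alone and 6 in replicate 2 alone. At 20 of the 34 (58.8%) the replicates' strongest peaks overlapped. The share was 65.5% among other genes with a ranked summit in both replicates and no conservative peak. Signals at the members without a conservative peak were low, with medians of 19.6 in replicate 1 (10.7 to 47.1) and 20.8 in replicate 2 (12.1 to 43.8). The medians were 101.4 and 110.4 at the 22 members with a peak. The groups overlap at the edge: rps-4, with a conservative peak, had 26.3 in replicate 1, lower than, for example, rpl-1 and rpl-6, which had none. In the joint ranked list of both replicates 40 of the 59 had a summit, 27 of them upstream (67.5%), against 51.3% upstream among 6009 other genes with a ranked summit and no conservative peak. The share of all genes with a summit in the joint ranked list is not given here, so the 40 is a count only. The shares upstream are a description with no test.

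Of the members without a conservative peak, the 8 whose lower replicate signal was highest are given here. The gene rpl-29 had 26.5 in replicate 1 and 35.9 in replicate 2, rpl-9 had 25.9 and 31.7, and rpl-22 had 25.8 and 41.7. At rpl-1, for the protein of the mobile stalk beside the exit site of transfer RNA, the signals were 47.1 in replicate 1 and 25.3 in replicate 2. At rps-0, for a small subunit protein needed to mature the subunit, they were 24.8 in replicate 1 and 43.8 in replicate 2. The other 3 were rps-10, rpl-31 and rpl-6, with 34.6, 27.1 and 41.2 in replicate 1 and 24.4, 23.5 and 23.4 in replicate 2. For rpl-22, rps-10 and rpl-31 the replicates' values come from different peaks on opposite sides of the start. These summits lay at 289 bp in replicate 1 and -231 bp in replicate 2 for rpl-22, at -343 and 300 bp for rps-10 and at -280 and 463 bp for rpl-31. In the joint ranked list the repeatability scores of the 8 were 57 to 786.

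The threshold follows repeatability and not signal alone. Peaks in the conservative list had a score of at least 830, on a scale that ends at 1000. Just inside were rps-4 with a score of 877 and rpl-23 with 954, and just outside were rpl-29 with 786 and rps-0 with 741. The joint signal of rpl-1 was 75.2 at a score of 672, so it was outside with a higher signal than rpl-23, which had 66.7. The genes rpl-1, rps-0 and rpl-6 were in the other joint thresholded list, called optimal here, which held 25 members. The share of all genes in the optimal list is not given here, so the 25 is a count only. The list of replicate 1 held rpl-1 and rpl-6, and that of replicate 2 held rps-0.

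**Figure D3:**
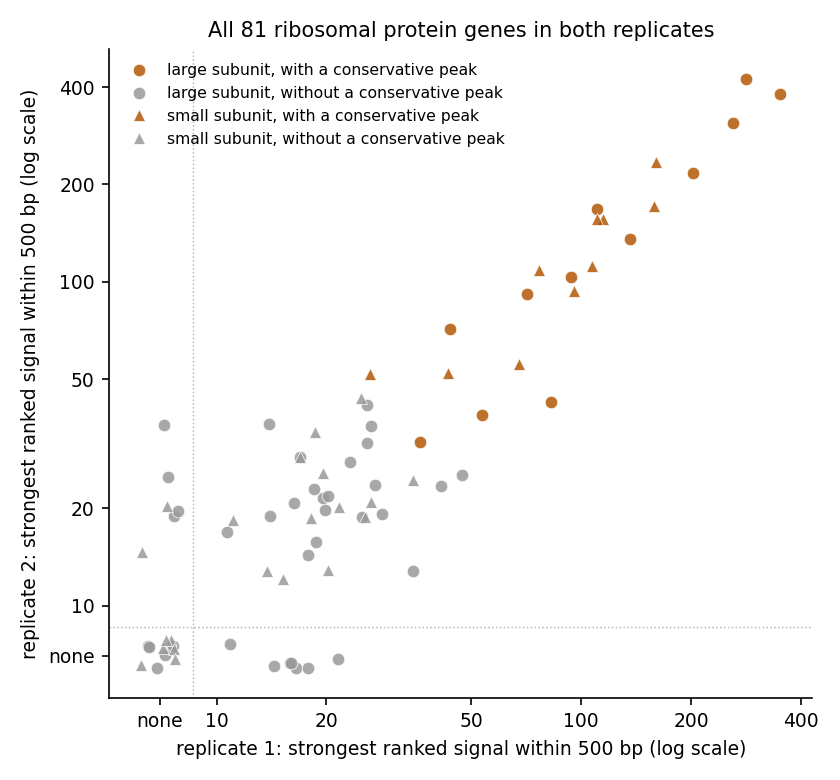
Strongest ranked signal within 500 bp of the start in replicate 1 (x axis) and replicate 2 (y axis), both on log scales, for all 81 ribosomal protein genes, with genes that have no ranked summit in the strip marked none. Genes with a conservative peak (orange) reach from 26.3 to 351 in replicate 1, genes without one (grey) stay at or under 47.1, and circles (large subunit) and triangles (small subunit) are mixed in both.

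Some members carry near-identical names. The genes rpl-7 and rpl-7A, which encode different proteins, both had a peak. The gene rpl-11.2 had a peak, whereas rpl-11.1 had ranked signals of 18.5 in replicate 1 and 22.9 in replicate 2 and no conservative peak. Likewise rpl-24.2 had a peak and rpl-24.1 none, and rpl-41.2 had a peak 283 bp upstream while the same peak lay 819 bp downstream of the start of rpl-41.1. The pairs rpl-25.1 and rpl-25.2, and rpl-36 and rpl-36.A, had no peak at either gene. A similar name does not mean a similar sequence, and sequence identity between these genes was not computed. Where the genes of a pair are near-identical in sequence, reads that fit both can be lost or split. The sources used here do not say how such reads were treated. Beside rpl-41.1, rpl-27 was the other member with a conservative summit between 500 and 1000 bp from its start, 712 bp downstream with a signal of 184.

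The stalk genes were among those with little signal. The proteins of rla-0, rla-1 and rla-2 form the flexible stalk that recruits translation factors to the large subunit. The gene rla-0 had a ranked summit of 16.5 in replicate 1 alone, rla-1 of 25.01 in replicate 2 alone, and rla-2 had none. The gene rpl-12, for a protein at the base of the stalk, had a conservative signal of 264. Among weak summits, 3 were shared by a pair of members: rpl-24.1 with rps-10 (joint ranked signal 48.0), rpl-36 with rps-14 (43.1) and rpl-39 with rps-30 (52.2).

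Members with a peak were found on 4 of the 6 chromosomes. Chromosome I held 8 with a peak of 25 members, chromosome III 5 of 18, chromosome IV 8 of 18 and chromosome X 1 of 2. Chromosomes II and V held 0 of 10 and 0 of 8, which allow shares of up to 27.753% and 32.4%, and together 0 of 18, which allows up to 17.6% (upper Wilson bounds). Among all protein-coding genes, chromosomes II and V had a peak at 3.04% and 2.64%, against 4.48% on I, 4.70% on III, 2.77% on IV and 2.64% on X. Weak summits were present on these chromosomes too, since 6 of 10 members on II and 5 of 8 on V had a ranked summit in both replicates. No test was run, and the split was seen in the data.

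**Figure D4:**
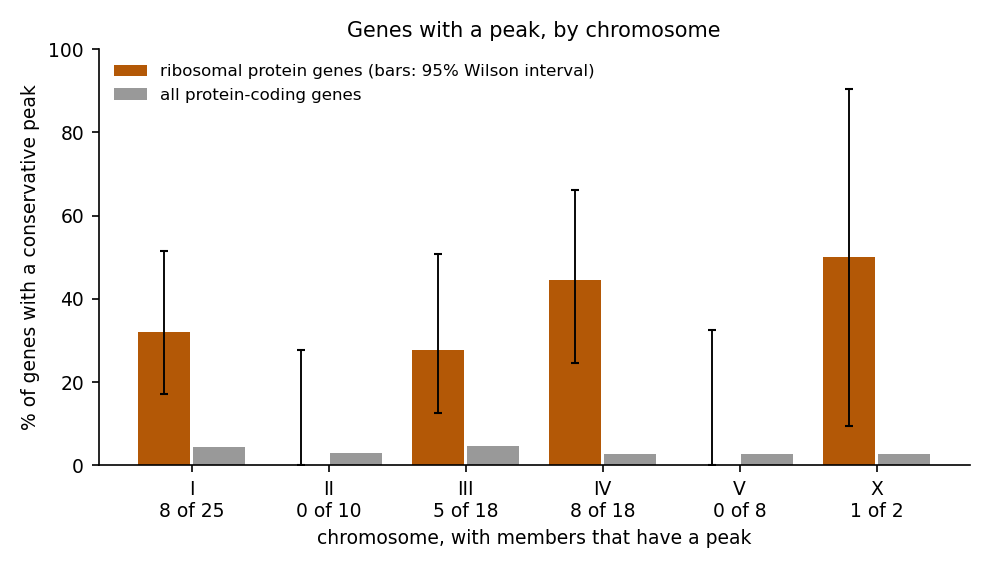
Percent of genes with a conservative peak on each chromosome, for ribosomal protein genes (orange, with 95% Wilson intervals) and all protein-coding genes (grey). Members on chromosomes II and V have no peak, and on the other chromosomes the members' share is 27.78% to 50%, with wide intervals.

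Words of 6 bases were counted in the 201 bp centred on the summit, on both strands. GAGAGA was in 6 of 22 member windows (27.3%), against 37.9% of the 1324 other conservative summits, and ACGCAG in 5 (22.7%), against 22.6%. AAAAAT was in 18 (81.8%), against 44.9%. The other conservative summits include summits away from gene starts, whereas every member summit lies within 500 bp of a start. At 439 other promoter summits GAGAGA was in 36.9%, ACGCAG in 26.0% and AAAAAT in 54.4%. In windows of the same length placed 286 bp upstream of all 19973 genes, GAGAGA was in 12.2%, ACGCAG in 5.12% and AAAAAT in 74.5%. Within 50 bp of the summit AAAAAT was in 3 of 22 (13.6%), against 20.8% at the other summits. Content of G and C within 100 bp had a median of 44.3% at member summits and 45.3% at other summits, and of 33.8% upstream of all genes.

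The 4 words in capitals were picked after the values were seen, as those with the largest excess at member summits over other conservative summits among 6336 words of 7 bases with at least 3 G or C. They carry no test, and the excess at the summits is what chose them. TAGGCCA was in 8 of 22 member windows of 201 bp (36.4%), against 2.19% of other conservative summits. TACCGTA was in 7 (31.8%), against 4.003%. ACACTCG was in 6 (27.3%), against 2.64%. GGCCTAA, which overlaps TAGGCCA on the other strand, was in 6 (27.3%), against 1.13%. At 439 other promoter summits the shares were 2.96%, 5.01%, 2.96% and 0.911% in the same order. Within 50 bp of the summit TAGGCCA was in 1 of 22 (4.55%), against 1.66% of other conservative summits. GGCCTAA was in 0 of 22 there, against 1.06%. TACCGTA was still in 7 of 22, against 2.42%, and ACACTCG in 6, against 1.51%.

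The words differed in where they stood. TACCGTA was close to the summit, at a median of 13 bp and at most 44 bp from it, in rpl-3, rpl-20, rps-1, rps-20, rpl-11.2, rps-23 and rpl-7. ACACTCG was similarly close, at a median of 21 bp and at most 37 bp, in rpl-3, rpl-20, rpl-15, rpl-24.2, rpl-11.2 and rps-23. GGCCTAA lay 57 to 78 bp from the summit, on the side of the gene start in 6 of 6, which places it outside all but the rpl-7A window among those printed. TAGGCCA lay at a median of 64.5 bp from the summit, with a range of 4 to 77 bp. Each of the 6 GGCCTAA sites overlapped a TAGGCCA site of the same gene, so the words do not mark separate sites there. In rpl-11.2 and rps-23 the words TACCGTA and ACACTCG stood end to end as 14 bases, read on opposite strands of the genes, and this joined sequence was in 2 of the 1324 other windows. Both words were in 4 member windows, rpl-3, rpl-20, rpl-11.2 and rps-23, and in 3 of the 1324 others. Since each word was chosen for its excess in these same windows, the counts of both together are not separate evidence.

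Members without a conservative peak also held the words. In windows placed 286 bp upstream of the start, TAGGCCA was in 12 of 59 (20.3%), against 1.83% of all genes, ACACTCG in 8 of 59 (13.6%), against 1.04%, and TACCGTA in 6 of 59 (10.2%), against 3.18%. Over the whole 500 bp upstream, TAGGCCA was in 10 of the 22 members with a peak and 16 of the 59 without (27.1%), against 4.60% of the other genes with a peak and 4.01% of all genes. ACACTCG was there in 6 of 22 and 11 of 59, against 4.12% and 2.62%, and TACCGTA in 7 of 22 and 10 of 59, against 7.77% and 7.24%. So the words were present at ribosomal protein genes with and without a peak, and a match says only that the letters are there.

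Other genes of ribosome production can be read against the 3.27% of all protein-coding genes that had a peak. Of 70 genes for mitochondrial ribosomal proteins 1 had a peak (1.43%, 0.253 to 7.66), mrpl-55 with a signal of 51.5, and the interval includes the share over all genes. Of 22 genes for ribosome assembly and nucleolar factors 3 had one (13.6%, 4.75 to 33.3): ruvb-1, for a helicase of assembly complexes (272), pro-1, needed for ribosomal RNA processing (139), and nol-58, for a protein of the snoRNA particles that modify ribosomal RNA (124). Of 4 genes for RNA polymerase I, which transcribes the large ribosomal RNA, rpoa-1 had one (60.3). The interval of the assembly factors lies above the share over all genes and overlaps that of the 81 ribosomal protein genes, and that of the mitochondrial ribosomal proteins does not overlap it. The assembly factor list was a choice of 27 names, made with earlier results of these data known. Of these names 22 matched a gene, and the list's share rests on 3 genes, so its interval is a description only. The ubiquitin fusion genes ubl-1 and ubq-2, which encode a ribosomal protein each, and rack-1, for a protein bound to the small subunit, had no conservative peak. Their ranked signals were 41.5 in replicate 1 and 23.4 in replicate 2 for ubl-1, and 29.1 for ubq-2 and 21.2 for rack-1, both in replicate 1 alone.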

How the data were processed

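The data were ChIP-seq peak lists on ce11. The authors made them, per the accompanying deposited descriptions, from the alignments of each replicate or of both, with further inputs whose role is not stated. Which aligner and peak caller were used is not given in these sources. The signal is the authors' value per peak, with scaling not given, and was used to describe and rank peaks within a list; ratios between the replicates' lists rest on scales that may differ. The deposited repeatability score of at most 1000 and the deposited summit offset were used for the threshold and for positions. Depth is unknown, since the lists used hold no read numbers.

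Starts were 29314 5′ ends of protein-coding transcripts in Ensembl release 115 on WBcel235. The strongest summit within 500 bp was taken per gene and list. No test was run: there is 1 group, and shares carry 95% Wilson intervals. Nothing says how separately the 2 replicates' worms were grown. Every member with a conservative peak was named, as were the 8 without one whose lower replicate signal was highest and those with a summit 500 to 1000 bp away; further names were chosen after their values were seen. The members, lists and alternatives were chosen with earlier results of these data known. The assignment of the strongest summit to a gene was tested on simulated summits, all upstream of a start. Counts of words and of nearby genes were not tested in this way. Python 3.11.15, NumPy 2.4.6, pandas 2.3.3 and Matplotlib 3.10.9 were used.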

Additional observations from a re-analysis of the deposited data

How the results depend on the processing

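Of 59 values recomputed under alternatives, 45 stayed close to the value reported, 14 moved and 0 reversed. Most of these values are counts or signals, which have no direction to reverse. Some alternatives could change little, such as counting a shared peak once, since the 22 peaks are distinct. The tally is therefore a record of what was tried and not a measure of stability. With a window of 250 bp in place of 500 bp, 5 members had a conservative peak (22 at 500 bp), 3 of the large and 2 of the small subunit, with a median signal of 224 and a median distance of -158 bp, and 14 had a ranked summit in both replicates (56 at 500 bp). The narrower window leaves out summits beyond 250 bp by construction. The median signal, 212, was 199 with a window of 1000 bp, 199 in the optimal list, 260.1 for conservative peaks at or above the list's median, and 224 without rpl-24.2, an alternative added after seeing the data. The replicates' own lists, each leaving out the other replicate, gave median signals of 107 to 124, on their own scale, and median distances of -292 to -284 bp. AAAAAT was in 3 windows within 50 bp of the summit and in 18 within 100 bp. Numbers of members with a peak were otherwise 19 to 25 over the thresholded lists and the windows of at least 500 bp tried. No paired analysis was possible because there is a single group.

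Shares over 22 peaks have wide intervals, and signal cannot be turned into reads. No control or untagged library was analysed. A peak near several genes could not be assigned to 1 of them, and expression was not measured.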
